A study of Mus musculus with 15 samples.

Results

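The ubiquitin-conjugating enzymes described here are the 36 genes, of 26145 in the deposited count matrices, whose symbols begin with Ube2, and all 36 were followed in single-cell RNA-seq of the mouse prefrontal cortex (PFC). The mice were male C57BL/6N. Each droplet library was made from tissue of 2 pooled animals, per the protocol in the labels, so a library and not a cell or a mouse is the replicate. The study's methods name fewer P21 mice than separate pools for the 3 P21 libraries would need, so these libraries may not all be independent. The young group was mice at P21 (3 weeks, 3 libraries), for which the labels give no treatment. The adult group, called P60, was mice whose labels give an age of 8 to 10 weeks. These mice had self-administered either saline or cocaine intravenously and were collected at 3 Periods, with 2 libraries for each drug at each Period. The Periods were the maintenance phase, 48 h of withdrawal and 15 days of withdrawal. The study places catheter implantation at P60, so collection came later and age at collection can differ between Periods. All adult mice, saline controls included, had therefore gone through catheterization and lever training with food, which the P21 mice had not, and P21 and P60 libraries were separate sets of preparations, so age, handling and preparation cannot be told apart. The tissue field of the adult labels names the nucleus accumbens whereas titles and protocol name the PFC, and 3 markers of its projection neurons were read at P60 in CPM, the UMI count of a gene scaled to a common library total. Drd2 reached at most 2.33 CPM in any of the cell classes. Adora2a was highest in endothelial cells, at 46.8 CPM, against 0.17 CPM (excitatory) and 2.09 CPM (inhibitory) for neurons. Ppp1r1b was highest in astrocytes, at 38.0 CPM, against 23.9 CPM (excitatory) and 6.76 CPM (inhibitory).

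After the filters of the authors, 35360 cells remained, 24822 at P60 and 10538 at P21, with 8375172 to 42892922 unique molecular identifiers (UMIs) per library. The 8 cell classes and the finer L2 clusters were those of the deposited annotation. At P60 each class expressed its own markers most, with the exceptions of Gpr17, the precursor marker, which was highest in newly formed oligodendrocytes, and Snap25, which excitatory and inhibitory neurons share. At P21 the class name and the L2 cluster name of a cell disagreed for 29 of 51 oligodendrocyte precursors (OPC), 147 of 329 microglia and 99 of 405 astrocytes, but for only 30 of 5688 excitatory neurons. Libraries shared at most 40 cell barcodes, 1.00% of the smaller library. P21 library 1 stood apart from the other P21 libraries. In excitatory neurons its gene counts differed from those of libraries 2 and 3 by 8.96 and 8.07 times the variation expected from counting alone, against 1.57 times between libraries 2 and 3 and 3.13 to 4.99 times between P60 libraries of the same group. Libraries 2 and 3 were therefore also summed as 1 library in the age comparison.

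E2 enzymes stand in the middle of the ubiquitin cascade. An E1 enzyme activates ubiquitin and hands it to a cysteine of the E2, and the E2, bound to an E3 ligase, passes it to a lysine of a substrate or of another ubiquitin. Which lysine of ubiquitin is used sets the fate of the substrate, since chains on one lysine mark it for the proteasome whereas chains on another act in signalling and DNA repair, and some E2 enzymes carry NEDD8 or ISG15 in place of ubiquitin. In neurons this system turns over synaptic proteins and is known for its part in synapse formation and pruning.

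A catalytic core could be read in the coding sequences of many members, but not of all. Of the 36 members, 22 encoded the tripeptide His-Pro-Asn (HPN) and 19 of these carried a cysteine codon after exactly 7 further codons. The stretches below show this core in 8 members, with the HPN codons and the cysteine codon in capitals. These members are examples of the roles described below (UBCH5, lysine-48 chains, RAD6, lysine-63 chains, APC/C and ISG15). Bases run 5′ to 3′ on the sense strand of coding exons (GENCODE models, build NCBIM37).
Ube2d1: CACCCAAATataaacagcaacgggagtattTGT
Ube2d3: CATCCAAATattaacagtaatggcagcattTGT
Ube2g1: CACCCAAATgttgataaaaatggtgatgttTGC
Ube2b: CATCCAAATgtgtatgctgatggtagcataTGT
Ube2n: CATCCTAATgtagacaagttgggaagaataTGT
Ube2s: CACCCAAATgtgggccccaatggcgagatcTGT
Ube2c: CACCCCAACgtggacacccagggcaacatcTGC
Ube2l6: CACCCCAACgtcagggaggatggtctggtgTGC

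Some members are close relatives. Ube2d2 and Ube2d3 shared 86.3% of coding bases and 97.3% of residues, Ube2d1 and Ube2d2 shared 89.1% of residues, and Ube2a and Ube2b shared 95.4%. The library protocol reads the 3′ ends of transcripts, where copies matter most. The last 300 bases of Ube2d1, Ube2d2, Ube2d3, Ube2a and Ube2b had no other place in the genome matching at least 90 bases at 95% identity. Ube2l6 had 50 such places, the most that the search kept, so its full number may be higher. Ube2nl had 3, Ube2e1 and Ube2v1 2 each, and Ube2e3, Ube2k, Ube2o, Ube2q2 and Ube2s 1 each. Reads of all these genes, Ube2l6 included, could have been lost or misplaced. Ube2nl shared 97.0% of coding bases with Ube2n and its few UMIs are uncertain. Ube2v1 shared 61.5% of its exon bases on the same strand with Tmem189, and its level, at most 4.02 CPM in the mean of any P60 class, is uncertain for that reason.

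At P60 the summed level of the members was highest in neurons, whereas single members differed in their highest class. Of the 36, 32 reached a mean of at least 5 CPM in 1 class or more. The highest class was inhibitory neurons for 9 of these, excitatory neurons for 5, endothelial cells for 5 and OPC for 5. It was newly formed oligodendrocytes for 4, mature oligodendrocytes for 2 and microglia for 2. The order was not equally stable over libraries. The highest class was above the next in only 6 of 11 libraries for Ube2d3 and 6 of 12 for Ube2v2. For Ube2d1, Ube2e1, Ube2l6 and Ube2w it was above the next in 12 of 12. Levels are CPM of the summed UMIs of a class in a library, and since a 3′ UMI count does not grow with transcript length, levels of different genes can be set side by side, although capture can differ between genes. Together the members made up 4060 ± 180 CPM in excitatory neurons (SD, n = 12) and 3983 CPM in inhibitory neurons, against 2234 ± 284 CPM in astrocytes (n = 11) and 2098 CPM in microglia. Differences between classes are given as descriptions, without a test.

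**Figure D1:**
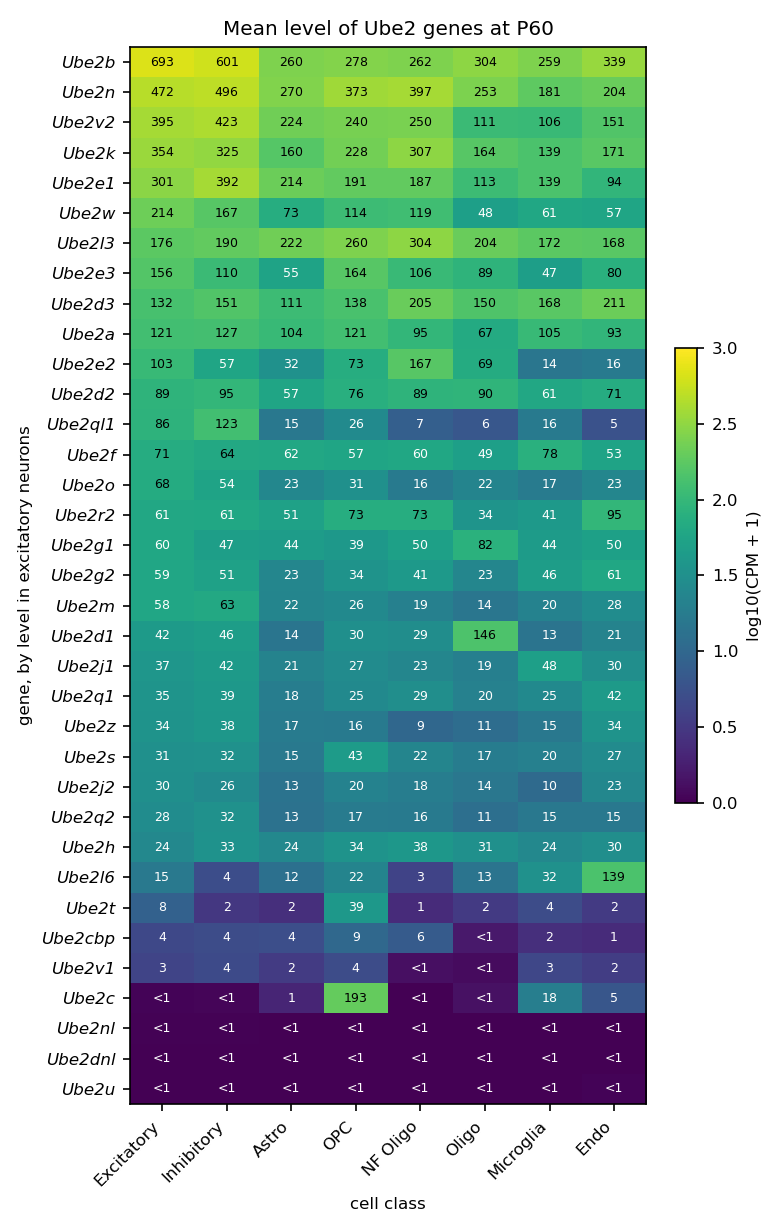
Heat map of the mean level (CPM over P60 libraries, colour on a log scale) of the Ube2 members reported, in rows ordered by level in excitatory neurons, in the 8 cell classes, in columns. Ube2b, Ube2n and Ube2v2 are the highest rows in both neuron classes, followed by Ube2k in excitatory and Ube2e1 in inhibitory neurons. Ube2d1 in oligodendrocytes, Ube2l6 in endothelial cells and Ube2c in OPC each stand out in a single column.

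The RAD6 pair, Ube2a and Ube2b, ubiquitinates histone H2B and acts in DNA damage tolerance. Ube2b was the most abundant member of excitatory neurons at P60, at 693 ± 43.3 CPM (range 591 to 756, n = 12), with 601 CPM in inhibitory neurons and 259 CPM in microglia, the lowest class. It was higher in excitatory than in inhibitory neurons in 11 of 12 libraries, but the ranges of the 2 classes overlapped. Ube2a differed little between neurons, with means of 127 CPM (inhibitory) and 121 CPM (excitatory). Ube2h, which acts with a multisubunit ligase that degrades metabolic enzymes, lay between 24.2 and 37.8 CPM in every class. Ube2t, the E2 of the Fanconi anaemia pathway, was at 39.1 ± 38.3 CPM in OPC, with single libraries from 8.02 to 143 CPM, and at 7.51 CPM in excitatory neurons, the next class.

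Ube2n and its inactive partner Ube2v2, which together build the lysine-63 chains of signalling and repair, were near each other in both neuron classes. In excitatory neurons Ube2n was at 472 CPM and Ube2v2 at 395 CPM, and in inhibitory neurons they were at 496 and 423 CPM. Microglia were lowest for both, at 181 CPM for Ube2n and 106 CPM for Ube2v2. Ube2k, which builds lysine-48 chains, was at 354 ± 16.9 CPM in excitatory neurons and at 139 CPM in microglia.

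The UBCH5 group, Ube2d1, Ube2d2 and Ube2d3, and its relatives Ube2e1, Ube2e2, Ube2e3, Ube2l3 and Ube2w serve many E3 ligases. Members of this group did not all share a highest class. Ube2d1 was at 146 ± 31.3 CPM in oligodendrocytes (range 105 to 211), 3.16 times the 46.3 CPM of inhibitory neurons, the next class, and higher in 12 of 12 libraries. Ube2d1 was at 13.4 CPM in microglia, the lowest class. Its relatives Ube2d2 and Ube2d3 differed less between classes, with highest classes at 95.5 CPM (inhibitory neurons) and 211 CPM (endothelial cells) and the lowest class, astrocytes, at 56.6 and 111 CPM. Ube2e1 was at 392 CPM in inhibitory and 301 CPM in excitatory neurons, with inhibitory neurons higher in 12 of 12 libraries. Ube2w, which attaches ubiquitin to the amino terminus of a protein, had the opposite order, with excitatory neurons at 214 CPM and inhibitory neurons at 167 CPM, again in 12 of 12 libraries. Ube2e2 was at 167 ± 63.3 CPM in newly formed oligodendrocytes (n = 11) and at 103 CPM in excitatory neurons, and its level in microglia was 14.2 CPM.

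Ube2ql1, a large atypical E2, was at 123 ± 23.9 CPM in inhibitory and 85.8 CPM in excitatory neurons, with inhibitory neurons higher in 11 of 12 libraries, and at 4.72 CPM in endothelial cells. In contrast, Ube2l6, the E2 of the interferon-induced modifier ISG15, was at 139 ± 24.8 CPM in endothelial cells (range 109 to 187) and at 31.6 CPM in microglia, 4.38 times lower and lower in 12 of 12 libraries. Without cells in which over 5% of UMIs came from haemoglobin genes, these levels were 69.9 ± 17.7 and 24.0 CPM. Ube2m and Ube2f, the E2 enzymes of NEDD8, had their highest means at 63.2 CPM in inhibitory neurons and at 78.2 CPM in microglia.

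Ube2c and Ube2s serve the anaphase-promoting complex (APC/C), Ube2c by starting and Ube2s by extending the chains that drive the exit from mitosis. Ube2c was by far highest in precursors. In OPC it was at 193 ± 155 CPM (n = 11, 20.9 to 558 CPM in single libraries) and in microglia, the next class, at 18.05 CPM, and its mean in excitatory neurons was 0.057 CPM. Of the 401 Ube2c UMIs in P60 OPC, 374 lay in cluster OPC_1, where 35 of 53 cells had at least 1 UMI. Ube2s had no such pattern, with means of 43.5 ± 23.2 CPM in OPC and 31.7 CPM in inhibitory neurons.

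Among the 26 excitatory L2 clusters the members varied to different extents. Ube2b differed by 1.42 times between its highest and lowest cluster, Exc_15 at 814 and Exc_4 at 574 CPM. By contrast, Ube2ql1 was at 165 ± 26.1 CPM in Exc_18 (n = 7) and 17.4 ± 9.75 CPM in Exc_21 (n = 12), a ratio of 9.48, and the libraries of these clusters did not overlap. At P21 the same clusters were at 186 and 24.2 CPM for Ube2ql1. Ube2e3 had its highest level in Exc_2, at 275 ± 25.7 CPM, and its lowest in Exc_18, at 48.8 ± 10.9 CPM, a ratio of 5.65, with 282 and 48.0 CPM at P21. Thus at P60 Exc_18 was the highest cluster for Ube2ql1 and the lowest for Ube2e3. Ube2l6 was graded over the excitatory clusters, at 43.9 ± 14.5 CPM in Exc_4, 39.2 CPM in Exc_3 and 37.2 CPM in Exc_5. It was at 27.6 CPM in both Exc_2 and Exc_9 and at 1.48 CPM in Exc_18.

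**Figure D2:**
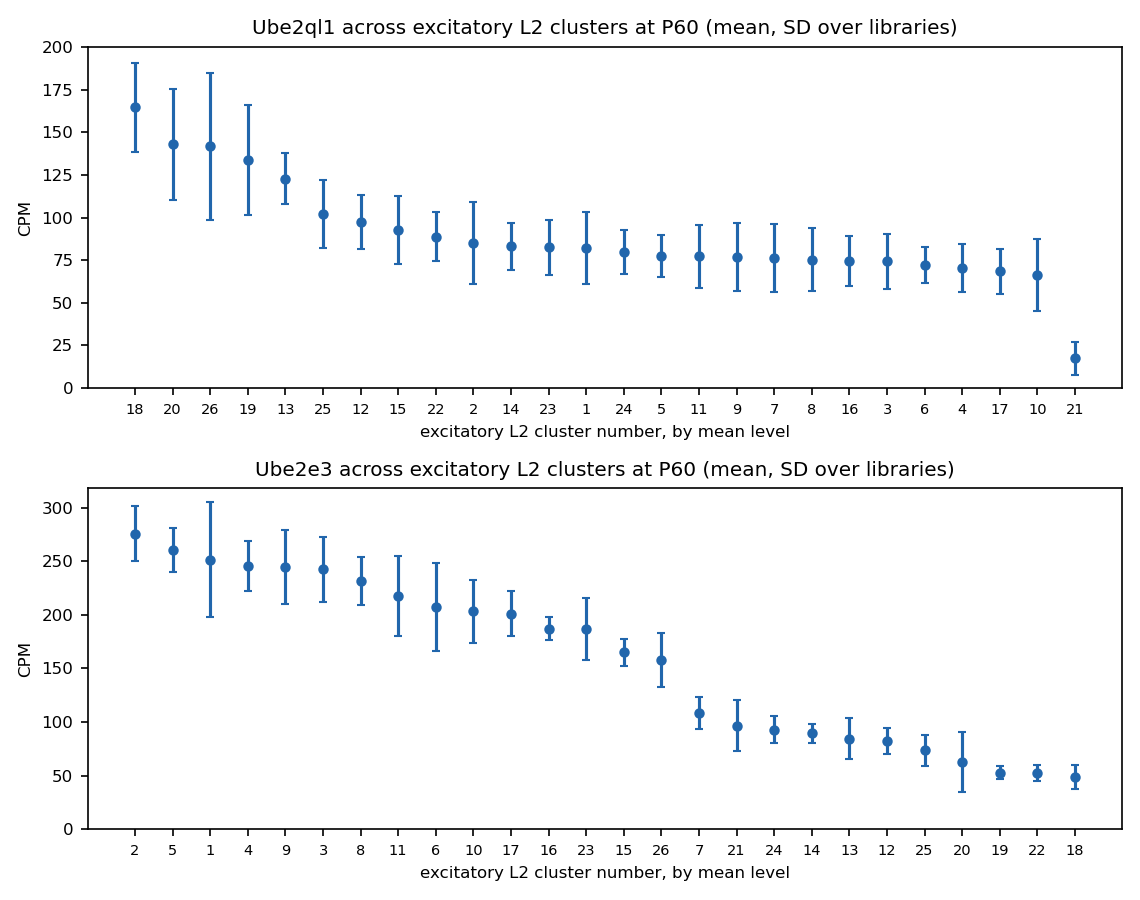
Levels of Ube2ql1 and Ube2e3 (CPM, P60) in the 26 excitatory L2 clusters, as mean with SD over the libraries that had enough cells. Ube2ql1 runs from 17.4 CPM in Exc_21 to 165 CPM in Exc_18, and Ube2e3 from 48.8 CPM in Exc_18 to 275 CPM in Exc_2.

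In endothelial clusters, Ube2l6 was at 668 ± 89.6 CPM in Endo_13 (n = 10, range 565 to 859) and at 132 CPM in Endo_10, the next cluster, down to 61.8 CPM in Endo_1. Endo_13 carried blood transcripts, since 46.8% of its UMIs came from 8 haemoglobin genes and 230 of its 231 cells had over 5% of their UMIs from them. Isg15 itself, the modifier that UBE2L6 conjugates, was at 227 CPM in Endo_13 and highest in Endo_7, at 492 CPM. Haemoglobin UMIs are part of the CPM total and lower the CPM of all other genes in Endo_13. The level of Isg15 there is therefore not directly comparable with that of other clusters, and is no sign that Isg15 is low in Endo_13. The Ube2c UMIs of P60 endothelial cells lay mostly in the same cluster, 72 of 93.

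To find which members change between adolescence and adulthood, the 3 P21 libraries were compared with the 6 saline libraries of P60 in each class. Of 195 tests of a member in a class, 28 were called lower and 1 higher at P60 (edgeR quasi-likelihood test, Benjamini-Hochberg adjusted p under 0.05 and a change over 1.5-fold), and 73 had an unadjusted p under 0.05. The share of all genes called lower differed between classes, and members are read against it. It was 10.1% in excitatory neurons (3 of 32 members tested), 8.26% in inhibitory neurons (4 of 28), 6.93% in endothelial cells (6 of 30), 4.05% in astrocytes (2 of 26), 19.4% in microglia (4 of 19), 4.08% in newly formed oligodendrocytes (1 of 19), 10.6% in OPC (4 of 20) and 9.42% in oligodendrocytes (4 of 21). In excitatory neurons, microglia and newly formed oligodendrocytes the share of members called lower was near that of all genes, and in astrocytes it rested on only 2 calls. Of the 6 endothelial calls, Ube2l6 and Ube2o were not called without cells over 5% haemoglobin, and Ube2c could then not be tested. Over the classes together 8.79% of all genes were called lower and 7.62% higher. With P21 libraries 2 and 3 summed as 1 library, 5 of the 29 calls missed the threshold, namely Ube2l6 (-0.58, adjusted p = 0.047) and Ube2o (-0.75, 0.0827) in endothelial cells, Ube2j2 in inhibitory neurons (-0.64, 0.0919), and Ube2v2 (-0.60, 0.126) and Ube2w (-0.73, 0.0748) in microglia. The median change of the members was below 0 in all 8 classes, from -0.15 on the log2 scale in excitatory neurons (24 of 32 members negative) to -0.41 in microglia, beside medians of all genes between -0.01 and 0.01.

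**Figure D3:**
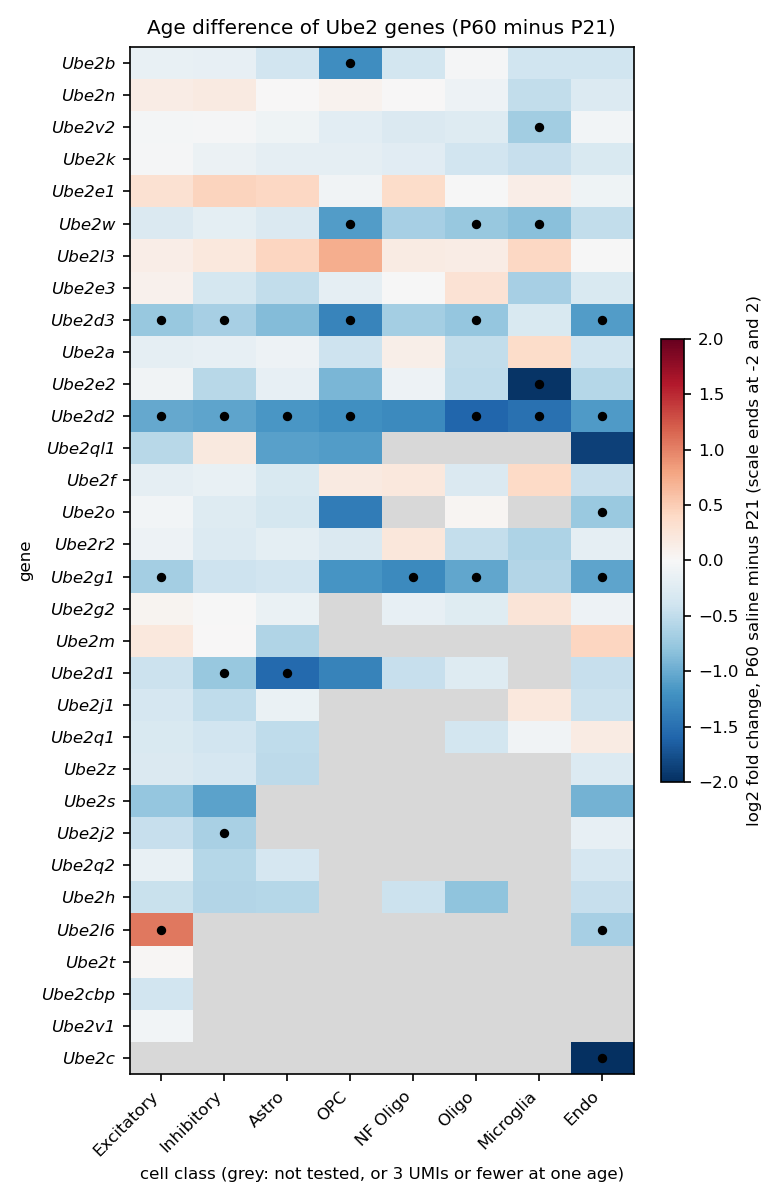
Heat map of the age difference (log2 fold change, P60 saline minus P21) of the members reported, in rows, in the 8 cell classes, in columns, with a black dot where the difference was called and grey where it was not tested or where an age had 3 UMIs or fewer. Ube2d2 carries a dot in 7 of 8 classes and Ube2d3 in 5, all lower at P60, and Ube2l6 in excitatory neurons is the only dot on the higher side.

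The UBCH5 pair Ube2d2 and Ube2d3 made up 12 of the 28 lower calls. In excitatory neurons, Ube2d2 was at 219, 150 and 128 CPM in the 3 P21 libraries and at 71.9 to 94.8 CPM (median 76.2) in the 6 P60 saline libraries. No saline library reached the lowest P21 library, and the difference was -1.02 ± 0.14 (log2 ± SE, adjusted p = 0.000234). The first value belongs to P21 library 1, and without it the difference was -0.76 (edgeR adjusted p = 8.4e-05). That p value rests on P21 libraries 2 and 3 alone, which may not be independent, so it may be too small. Ube2d2 fell in inhibitory neurons (-1.05), endothelial cells (-1.14), oligodendrocytes (-1.58), microglia (-1.49), OPC (-1.22) and astrocytes (-1.16), and its value in newly formed oligodendrocytes, -1.28 ± 0.37, missed the threshold (adjusted p = 0.0576). The endothelial call was lost with all 12 P60 libraries in place of the 6 of saline (-0.79, adjusted p = 0.0609), and the OPC call with DESeq2 (-1.15, adjusted p = 0.17). The largest of these, in oligodendrocytes, came from 264, 177 and 156 CPM at P21 and 38.6 to 102 CPM (median 68.1) in saline libraries.

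Ube2d3 fell in 5 classes. In excitatory neurons it was at 191, 241 and 202 CPM at P21 and at 102 to 139 CPM (median 119) in saline libraries, without overlap, a difference of -0.76 ± 0.12 (adjusted p = 0.000309). In endothelial cells it was at 342, 405 and 362 CPM at P21 and at 149 to 238 CPM in saline libraries, a difference of -1.11 ± 0.15 (adjusted p = 0.000256). The values were -0.67 in inhibitory neurons, -1.33 in OPC and -0.77 in oligodendrocytes. Unlike Ube2d2, Ube2d3 was not highest in P21 library 1. Ube2d1 fell in astrocytes, from 38.3, 32.6 and 58.4 CPM to 5.63 to 16.6 CPM, by 1.56 on the log2 scale, and in inhibitory neurons by 0.76. In oligodendrocytes, its highest class, Ube2d1 was at 125 to 178 CPM at P21 and 105 to 162 CPM in saline libraries.

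Ube2g1, an E2 of lysine-48 chains, fell in 4 classes. In excitatory neurons it was at 98.6, 98.0 and 86.2 CPM at P21 and at 49.2 to 70.9 CPM (median 55.8) in saline libraries, a difference of -0.67 ± 0.12 (adjusted p = 0.000714). In oligodendrocytes it was at 153, 153 and 121 CPM at P21 and at 63.6 to 85.4 CPM in saline libraries, a difference of -1.04 ± 0.17 (adjusted p = 0.00052). The P21 libraries were all above the saline libraries in both classes. The other values were -1.05 in endothelial cells and -1.27 in newly formed oligodendrocytes, and the latter missed the threshold with a minimum of 30 cells (-1.01, adjusted p = 0.111). Of the other members grouped under lysine-48 chains and the endoplasmic reticulum, Ube2j2, a membrane-anchored E2 of that compartment, fell in inhibitory neurons (-0.65). There 1 saline library, at 48.1 CPM, lay above the 3 P21 libraries at 39.4 to 44.4 CPM. This call was lost in 6 of the 9 repeats that left out 1 library.

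The promoters of Ube2d3 and Ube2g1, members that fell together in excitatory neurons, endothelial cells and oligodendrocytes, are shown from 250 bases before to 50 bases after the start of transcription (RefSeq, build GRCm38.p6, plus strand). Capitals mark a CCAAT box, read on either strand, in Ube2d3 and an NRF1 core, GCGC on both sides of 2 free bases, in Ube2g1. Each motif was searched on both strands.
Ube2d3, chr3:135437982-135438281: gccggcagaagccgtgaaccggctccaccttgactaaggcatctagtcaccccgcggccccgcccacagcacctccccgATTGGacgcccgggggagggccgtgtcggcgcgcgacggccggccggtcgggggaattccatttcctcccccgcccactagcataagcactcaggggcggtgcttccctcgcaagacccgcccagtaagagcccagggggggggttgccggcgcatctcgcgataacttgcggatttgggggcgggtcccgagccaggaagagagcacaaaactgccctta
Ube2g1, chr11:72607011-72607310: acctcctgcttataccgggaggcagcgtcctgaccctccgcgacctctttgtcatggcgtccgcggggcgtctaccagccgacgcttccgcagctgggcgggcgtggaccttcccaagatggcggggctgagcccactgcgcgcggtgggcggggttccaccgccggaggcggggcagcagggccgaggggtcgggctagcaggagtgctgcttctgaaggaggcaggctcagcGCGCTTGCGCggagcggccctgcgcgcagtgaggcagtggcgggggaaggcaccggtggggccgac

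Of the 7 motifs searched, the Sp1 box GGGCGG, not capitalized above, was the one found in both windows. It occurred in 35.7% of all 32851 promoter windows and in 29 of the 38 windows of members. CCAAT occurred in 37.4% of all windows and in 7 of the members' windows, and the NRF1 core in 6.23% and in 5. The interferon response core, GAAA before and after 2 free bases, occurred in 3.44% of all windows and in 0 of the members'. The other 3 were CRE (TGACGTCA), in 1.79% of all windows and 2 of the members', the ETS core (CCGGAAGT), in 3.89% and 3, and the CHR (TTTGAA), in 17.9% and 3. Windows of the same gene can overlap.

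Ube2l6 was the one member called higher at P60. In excitatory neurons it was at 6.08, 8.62 and 8.23 CPM at P21 and at 10.9 to 21.9 CPM (median 14.3) in saline libraries, so the groups did not overlap, and the difference was 1.05 ± 0.25 (adjusted p = 0.00699). It is a low level, 368 UMIs in 5688 P21 neurons, and it stayed called under every alternative tried, the removal of each library in turn included. In endothelial cells Ube2l6 was called lower, at 170, 235 and 243 CPM at P21 and 110 to 169 CPM in saline libraries (-0.66 ± 0.15, adjusted p = 0.00895). However, cells over 5% haemoglobin were 28.7% of P21 and 14.9% of P60 endothelial cells, and they held 1563 of the 1852 P21 UMIs of Ube2l6. Without these cells the endothelial difference turned to 0.50 (adjusted p = 0.139), from 52.0 ± 7.24 CPM at P21 to 73.8 ± 22.6 CPM in saline libraries. The same cells held 217 of the 233 Ube2c UMIs of P21 endothelial cells. Ube2c was called lower there (-2.20, from 17.4, 34.5 and 31.5 CPM to 2.00 to 10.1 CPM), but without those cells it had 16 UMIs at P21 and 1 in saline libraries and could not be tested. Ube2o, a large E2 that joins E2 and E3 activity in one chain, was called lower in endothelial cells (-0.74) and missed the threshold without those cells (-0.47, adjusted p = 0.269). By contrast, Ube2d2, Ube2d3 and Ube2g1 stayed lower in endothelial cells without them, at -1.21, -1.06 and -1.07.

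**Figure D4:**
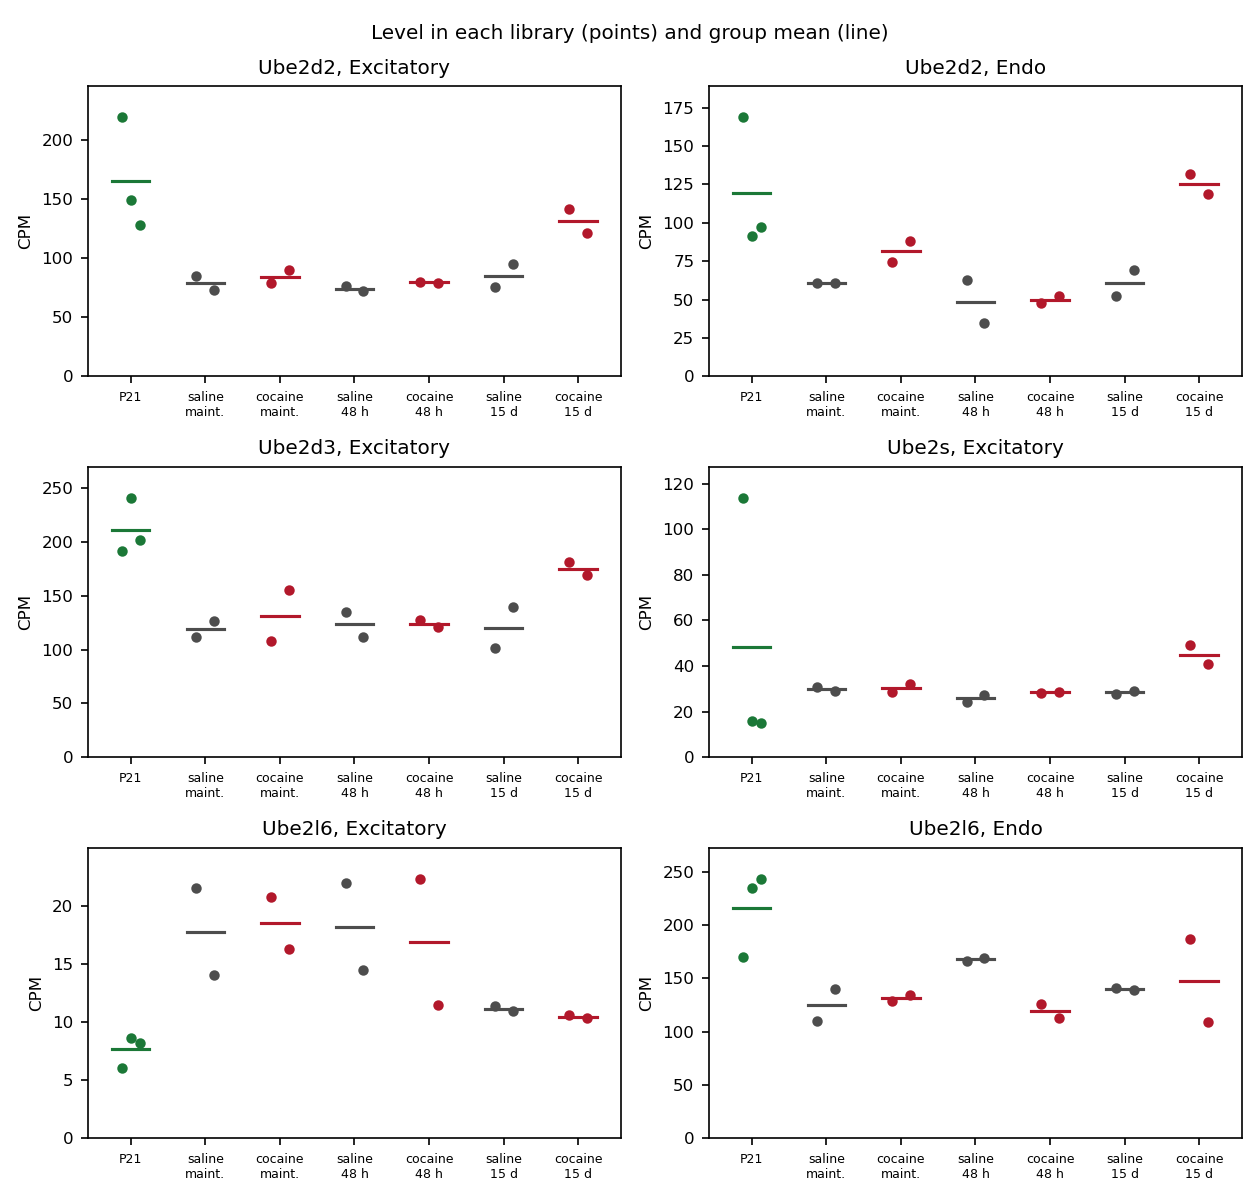
Level (CPM) in each library of Ube2d2, Ube2d3, Ube2s and Ube2l6 in excitatory neurons and of Ube2d2 and Ube2l6 in endothelial cells, by group, each point a library. The P21 points of Ube2d2 and Ube2d3 lie above the saline points, P21 library 1 lies alone at 114 CPM for Ube2s, and the cocaine points at 15 days are the highest of P60 for Ube2d2 in excitatory neurons, at 141 and 122 CPM.

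Further calls lay in glial classes, and P21 cells outside the neuron classes carried neuronal transcripts. The summed level of 5 neuronal markers (Snap25, Slc17a7, Neurod6, Gad1 and Gad2) in microglia was 1859 to 2487 CPM at P21 and 108 to 1519 CPM in saline libraries, and none of the 5 was at 0 at either age. In OPC it was 2811 and 2826 CPM at P21, with 1 of the 5 at 0, and 181 to 1651 CPM in saline libraries. In newly formed oligodendrocytes it was 487 to 770 CPM at P21 and 79.9 to 281 CPM in saline libraries, without overlap, and in endothelial cells 260 to 616 CPM and 42.0 to 499 CPM. With only cells whose class and cluster names agreed, Ube2g1 stayed lower in newly formed oligodendrocytes (-1.32, adjusted p = 0.0246), and Ube2d2 (-1.15), Ube2d3 (-1.22) and Ube2g1 (-1.11) in endothelial cells. In microglia Ube2e2 fell by 1.96 on the log2 scale, from 59.4, 91.2 and 67.4 CPM to 0 to 26.5 CPM, and Ube2w (-0.83) and Ube2v2 (-0.69) were called lower, all members with higher levels in neurons. With only the microglia whose class and cluster names agreed, Ube2d2 alone stayed called (-1.57, adjusted p = 0.0397), Ube2w (-0.11) and Ube2v2 (-0.11) did not, and Ube2e2 could not be tested. In OPC, Ube2b (-1.24 ± 0.24, adjusted p = 0.00333) and Ube2w (-1.12) were called lower, from 512 and 813 CPM of Ube2b in the 2 P21 libraries with at least 10 cells to 223 to 383 CPM. Ube2w also fell in oligodendrocytes (-0.75), where the neuronal markers were at 59.0 to 460 CPM at P21 and 82.6 to 595 CPM in saline libraries, and this call was lost with only cells whose names agreed (-0.54, adjusted p = 0.0765). In OPC no test was possible with such cells. In astrocytes the neuronal markers were at 813 to 1545 CPM at P21 and 59.6 to 1604 CPM in saline libraries, and with only cells whose names agreed the value of Ube2d2 was -0.88 (adjusted p = 0.162) and Ube2d1 could not be tested. The part of neuronal RNA in these calls was otherwise not tested.

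Several abundant members showed little difference with age. In excitatory neurons the log2 differences of Ube2k (-0.02), Ube2v2 (-0.04), Ube2b (-0.14) and Ube2n (0.15) had unadjusted p values from 0.201 to 0.860 in the edgeR test. Ube2e1, also abundant there, had a difference of 0.30 ± 0.11 (edgeR adjusted p = 0.0396), below the fold threshold. Ube2ql1 passed the adjusted p but not the fold in excitatory neurons, at 124, 125 and 133 CPM at P21 and 72.4 to 97.4 CPM in saline libraries (-0.56 ± 0.09, adjusted p = 0.000397). Ube2s in excitatory neurons was at 114, 15.9 and 14.9 CPM in the 3 P21 libraries and at 24.2 to 30.9 CPM in saline libraries, so its difference of -0.77 ± 0.62 was not called and rested on P21 library 1, the only P21 library above the adult range. Without that library the direction turned, and Ube2s was called higher at P60 in excitatory neurons (0.91, edgeR adjusted p = 4.83e-05). It was also called higher in inhibitory neurons (0.78, adjusted p = 0.0272) and endothelial cells (0.77, adjusted p = 0.0229). Only P21 libraries 2 and 3 then remained, which may not be independent, so these p values may be too small. Ube2c had 0 UMIs of 273870 in P21 OPC and was at 64.2 to 558 CPM in saline libraries, but P21 OPC were 31 and 12 cells in the libraries compared, 29 of the 51 P21 OPC carried the cluster name of another class, and the test did not pass (adjusted p = 0.154).

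The age difference was then taken within single neuron types, the L2 clusters. In 29 neuronal clusters with enough cells at both ages (26 excitatory and 3 inhibitory), 87 of 783 tests were called lower and 2 higher, beside 6.34% and 4.25% of all genes. Ube2d2 fell in 25 of the 28 clusters tested, with a negative value in 28 and a median of -1.14. Ube2d3 fell in 23 of 29 (median -0.84) and Ube2g1 in 16 of 28 (median -0.78). Ube2ql1 fell in 6 of 28, Ube2d1 in 5 of 28 and Ube2j2 in 4 of 25. Ube2s was negative in 25 of 25 clusters and called in none. Without P21 library 1 it was positive in 19 of the 19 clusters then tested and called higher in 7. These 7 calls rested on P21 libraries 2 and 3 alone, which may not be independent. With Ube2s low in P21 libraries 2 and 3, a cluster could then pass the count filter mainly through its P60 libraries, which favours a positive sign. On the other side, Ube2l6 was positive in the 6 clusters where it could be tested (0.63 to 1.53) and called in 1, although at its low P21 level a cluster could pass the count filter mainly through its P60 libraries, which favours a positive sign. Ube2e1 was positive in 28 of 29 clusters with a median of 0.25, and none was called. The clusters come from the same libraries, so their counts are not independent of each other.

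**Figure D5:**
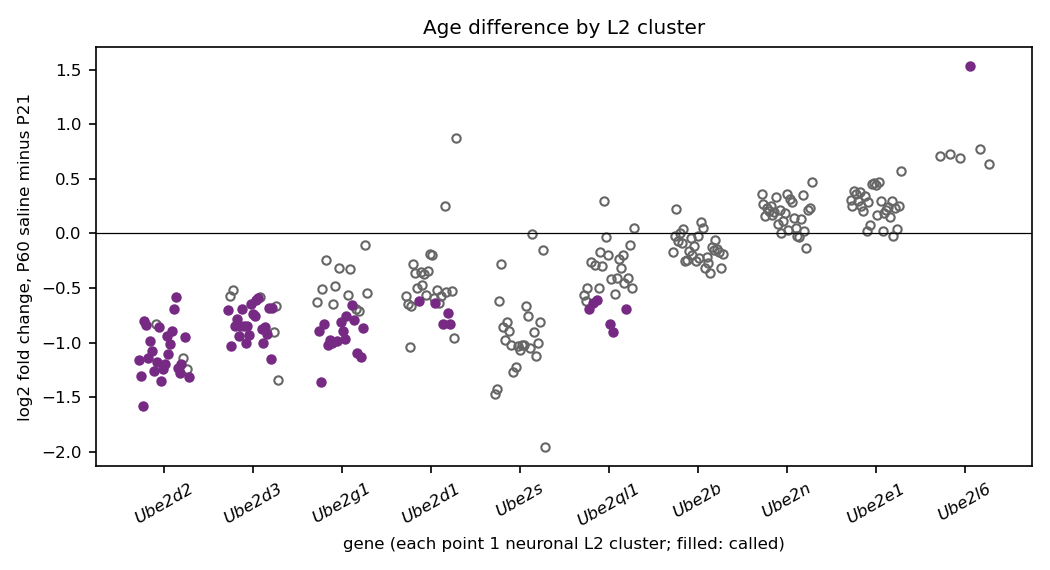
Age difference (log2 fold change, P60 saline minus P21) of 10 members in neuronal L2 clusters, each point a cluster, filled where called. The points of Ube2d2 lie between -1.58 and -0.59 and those of Ube2d3 between -1.34 and -0.52, whereas those of Ube2e1 lie around 0.25 with none filled.

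Whether the age difference of a member depends on the class was tested as the difference between each class and excitatory neurons. Of 227 tests, 8 were called, beside 7.23% of all genes, and 44 had an unadjusted p under 0.05. For Ube2l6 the age difference in endothelial cells minus that in excitatory neurons was -1.60 ± 0.22 on the log2 scale (adjusted p = 0.000591), and -0.80 without cells over 5% haemoglobin (adjusted p = 0.0366). Ube2ql1 differed between the neuron classes by 0.71 ± 0.12 (adjusted p = 4.89e-05), with 93.3 to 102 CPM at P21 and 71.4 to 135 CPM in saline libraries of inhibitory neurons against the decrease in excitatory neurons. The value of Ube2e2 in microglia was -1.804 ± 0.43 and that of Ube2b in OPC -0.94 ± 0.23, the classes with neuronal transcripts at P21. Ube2cbp in inhibitory neurons (2.19 ± 0.56) rested on levels of 1.00 to 2.17 CPM at P21 and 0 to 10.3 CPM in saline libraries. The other 3 calls, Ube2c in microglia and OPC and Ube2t in OPC, had 3 UMIs or fewer at P21. For Ube2d2, Ube2d3 and Ube2g1 none of the differences between classes was called, which does not show that the classes changed alike.

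The effect of cocaine self-administration was tested at each Period. At maintenance 0 of 140 tests in 5 classes were called (edgeR), beside 0.00459% of all genes, with 6 at an unadjusted p under 0.05. Astrocytes, newly formed oligodendrocytes and OPC were not tested there because a saline library had 8, 0 and 3 of these cells. At 48 h 0 of 204 tests were called, beside 0.00661% of all genes, with 7 at an unadjusted p under 0.05. DESeq2 called 0 of them at either Period. Over all Periods, 0 of 140 tests were called (0.00688% of all genes, 11 with an unadjusted p under 0.05).

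At 15 days of withdrawal 4 of 204 tests were called, all higher in cocaine, beside 0.302% of all genes called higher over the classes. In excitatory neurons, where 0.704% of all genes were called higher, Ube2d2 was at 141 and 122 CPM in the 2 cocaine libraries and at 75.8 and 94.8 CPM in the 2 saline libraries, a difference of 0.67 ± 0.12 (log2 ± SE, edgeR adjusted p = 0.0222). Ube2s was at 49.2 and 40.8 CPM in cocaine and 27.8 and 29.3 CPM in saline libraries of the same class, a difference of 0.70 ± 0.12 (adjusted p = 0.0189). Ube2d2 also rose in endothelial cells, with 132 and 119 CPM against 52.4 and 69.4 CPM (1.05 ± 0.20, adjusted p = 0.0243), where 0.139% of all genes were called, and in oligodendrocytes, with 169 and 163 CPM against 68.4 and 102 CPM (0.99 ± 0.23, adjusted p = 0.0365), where 0.264% were called. DESeq2 did not call these last 2, with values of 1.04 (adjusted p = 0.0762) and 0.98 (adjusted p = 1). The value in inhibitory neurons, 0.72 ± 0.19, missed the threshold (adjusted p = 0.0645).

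With 2 libraries a group, leaving out 1 library of 15 days leaves an arm of 1 library, which is then assumed to vary like the other P60 groups. Without cocaine library 1 or saline library 1 of 15 days no member was called, without cocaine library 2 a single call was left (Ube2s in excitatory neurons, adjusted p = 0.0482), and without saline library 2 there were 8. All 4 differences stayed above 0 in these repeats, between 0.51 and 0.84 for Ube2d2 and between 0.58 and 0.82 for Ube2s in excitatory neurons, and for Ube2d2 between 0.80 and 1.33 in endothelial cells and between 0.69 and 1.26 in oligodendrocytes. Both cocaine libraries of 15 days were above both saline libraries of 15 days in 8 of 8 classes for Ube2d2 and Ube2d3, 2 of the 14 members that could be compared in all classes, as for 42 of 2802 genes (1.5%). In the 26 excitatory clusters the same order held in 24 clusters for Ube2d3, 23 for Ube2d2, 21 for Ube2s and 19 each for Ube2d1 and Ube2g1, beside 15.5% of all gene and cluster pairs. These were the highest counts of any member. Among the other members reported the order held in at most 9 clusters (Ube2f), and in 1 for Ube2n and Ube2e1. All classes and clusters of a library come from the same preparation, so they do not count as separate observations. The test of whether the cocaine effect differed between Periods called 0 members, beside 0.00382% of all genes, with 11, 8 and 5 members' tests at an unadjusted p under 0.05 for 15 days against 48 h, 15 days against maintenance and 48 h against maintenance.

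Of the 17 members that could be compared in all 7 classes other than OPC, 1 (Ube2d2) was above P21 libraries 2 and 3 in P21 library 1 in every class, as were 221 of 3114 genes (7.1%). Ube2s and Ube2m, which were not tested in all of these classes and so lie outside the 17, were also higher in library 1 in each class. In excitatory neurons the cocaine libraries of 15 days were at 141 and 122 CPM of Ube2d2, within the P21 range of 128 to 219 CPM for the first and below it for the second. The age and the 15 day comparisons share the saline libraries of 15 days. The relation of these library differences to preparation was not tested.

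Other genes of the pathway were given by lists. Of 111 tests of HECT and U-box E3 ligases 1 was higher, below the 7.62% of all genes, and 8 were lower, near the 8.79% of all genes, with Stub1, a ligase that works with chaperones, lower in microglia, oligodendrocytes and OPC. Of 112 tests of genes of the proteasome core 1 was higher (Psma6 in oligodendrocytes, 0.72) and 0 were lower, both below the shares of all genes. E2 enzymes with other names had 1 lower call in 47 tests (Birc6 in microglia), below the share of all genes. With cocaine, Stub1 was the one gene called in these lists, higher at 15 days in endothelial cells (0.97) and inhibitory neurons (0.98), 2 of 114 tests of the E3 ligases beside 0.302% of all genes. These calls were not repeated with a library left out.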

How the data were processed

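The authors processed 10x Chromium 3′ reads with Cell Ranger against mm9 (NCBIM37, Ensembl genes), filtered cells and assigned classes and L2 clusters with Seurat, and P21 cells took their identity from correlation with P60 cells. The deposited matrices hold raw UMI counts per gene and cell and were read as deposited for the cells that the deposited annotation retains. Counts were summed per library and class or L2 cluster, for sums of at least 10 cells and groups of at least 2 libraries. CPM is over 26046 genes, without 13 mitochondrial genes and 86 that encode ribosomal proteins. The deposited annotation, made by the authors, also gives the fraction of mitochondrial UMIs of each cell, used only for a mean per library. Tests were edgeR 4.0.16 quasi-likelihood fits in R 4.3.3 over all genes of a class (TMM, filterByExpr, robust), with a call at an adjusted p under 0.05 (Benjamini-Hochberg) and a change over 1.5-fold. Age was the 6 saline libraries of P60 against the 3 of P21 (5 in astrocytes, newly formed oligodendrocytes and OPC, and 2 of P21 in OPC). Cocaine was tested at each Period in one fit of the P60 libraries. Doublets were treated only by the filter of the authors. P-values measure the spread between libraries. The edgeR scripts were tested on simulated counts, and DESeq2 1.42.0 was an alternative. Totals ranged from 8375172 to 42892922 UMIs per library. Values after ± are SDs over libraries for levels and SEs from the edgeR fit for differences, so both include spread between libraries.

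The members and gene lists were chosen with earlier results of these data known. Named with values were the members called in a class, the 5 most abundant of excitatory neurons, the most distinct of each class and those of a special role. Promoters came from RefSeq (27 of 36 members matched), and 3′ ends were searched with minimap2 2.31-r1302. Values of 1 member and of some other genes and lists of the pathway are not reported here, although counts over all members include that member.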

Additional observations from a re-analysis of the deposited data

Results flagged for a closer look

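Among the 6 saline libraries of P60, 3 of 30 groups of values had a library far from the others by Dixon's test, and chance flags about 1 in 20 groups. Ube2d2 in inhibitory neurons was at 126.2 CPM in saline library 1 of maintenance, with the nearest library at 88.7 CPM. Ube2v2 in microglia was at 188.8 CPM in saline library 1 of 15 days, with the nearest at 113 CPM. Ube2w in microglia was at 24.71 CPM in saline library 2 of 48 h, with the nearest at 61.9 CPM. In the order given, these values came from only 19 inhibitory neurons, 54 microglia and 77 microglia. The part of counting noise in them was not tested.

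The age difference of a member differed between a class and excitatory neurons by the test of the difference itself in 5 cases with more than 3 UMIs at each age, among 8 calls in 227 tests, a share below the 7.23% of all genes called. These were Ube2l6 in endothelial cells (-1.598 on the log2 scale), Ube2ql1 in inhibitory neurons (0.71), Ube2cbp in inhibitory neurons (2.1853), Ube2e2 in microglia (-1.8041) and Ube2b in OPC (-0.9356). Without cells over 5% haemoglobin the value of Ube2l6 was -0.80. The part of neuronal transcripts in P21 microglia and OPC, given with the age differences above, was not tested for the last 2.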

How the results depend on the processing

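Of the 29 age calls, 16 were kept under every alternative that gave a value, and of the 4 cocaine calls 0 were. Among the 16, Ube2c in endothelial cells could not be tested without cells over 5% haemoglobin. Ube2e2 in microglia and Ube2b, Ube2d3 and Ube2w in OPC could not be tested with only cells whose class and cluster names agreed. The value of Ube2l6 in endothelial cells turned to 0.50 without cells over 5% haemoglobin, the only change of direction among the age and cocaine calls. Ube2s, not called with all libraries, was called higher at P60 in 3 classes without P21 library 1.

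Calls by class in the age comparison moved as follows. Without the fold threshold there were 10 in endothelial cells, 12 in excitatory and 9 in inhibitory neurons in place of 6, 4 and 4. Without a filter on low counts there were 8 in inhibitory neurons and 3 in newly formed oligodendrocytes, and with all 12 P60 libraries 8 in microglia, 8 in OPC and 2 in oligodendrocytes in place of 4 each. With only cells whose class and cluster agree, chosen after seeing the data, there were 0 in astrocytes and 1 in microglia. Newly formed oligodendrocytes had 2 with P21 libraries 2 and 3 summed, 0 with a minimum of 30 cells and 2 without haemoglobin cells in place of 1. At 15 days cocaine calls were 2 with DESeq2 and 8 without the filter, and the latter gave 1 call at 48 h and 1 between Periods. With all 12 P60 libraries the calls of Ube2d3 in inhibitory neurons (-0.50) and oligodendrocytes (-0.58), Ube2w in oligodendrocytes (-0.48) and Ube2o in endothelial cells (-0.58) were also lost, with DESeq2 those of Ube2j2 in inhibitory neurons (adjusted p = 0.071) and Ube2w in oligodendrocytes (0.0659), and without the filter those of Ube2w in oligodendrocytes (0.0553) and of Ube2w and Ube2v2 in microglia (0.0631 and 0.103).

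Leaving out each library in turn gave 0 to 2 calls in astrocytes, 4 to 8 in endothelial cells, 4 to 7 in excitatory and 2 to 8 in inhibitory neurons, 2 to 6 in microglia, 0 to 3 in newly formed oligodendrocytes, 3 to 8 in OPC, 3 to 5 in oligodendrocytes, 70 to 109 over L2 clusters and 6 to 12 between classes. For cocaine it gave 0 to 8 calls at 15 days, 0 to 1 at 48 h, 0 to 1 over all Periods, 0 to 2 between Periods and 0 to 0 at maintenance. For 12 of the age calls the threshold was missed without 1 library or another. Without P21 library 3 the call was lost for Ube2d1 in astrocytes (adjusted p = 0.0921) and Ube2l6 in endothelial cells (0.0543), without P21 library 1 or 2 for Ube2d2 in astrocytes (0.0512 and 0.0513), without P21 library 2 for Ube2d3 in oligodendrocytes (0.0662), without P21 library 1 or 3 for Ube2w in oligodendrocytes (0.068 and 0.0863), and without saline library 1 of 15 days for Ube2g1 in newly formed oligodendrocytes (0.0528). Ube2d3 in inhibitory neurons fell under the fold threshold without P21 library 2 (-0.57) or saline library 2 of 48 h (-0.58). Ube2o in endothelial cells and Ube2v2 in microglia were each lost without any P21 library, either maintenance library or a 48 h library (adjusted p from 0.0585 to 0.152), Ube2w in microglia without P21 library 2 or 3 or saline library 2 of maintenance (0.0523 to 0.135), Ube2j2 in inhibitory neurons without P21 library 2 or 3, saline library 1 of maintenance or of 48 h, or either saline library of 15 days (0.0543 to 0.13), and Ube2d2 in OPC without saline library 1 of maintenance or either of 48 h (0.0561 to 0.104). The adjusted p values are from edgeR.

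No paired analysis was possible because replicate numbers were given in accession order and carry no pairing.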
